A study of Mus musculus with 6 samples.

Results

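The genes described here mark macrophages or serve their scavenging. They are Cd68, Csf1r, Csf1, Cd163, Mrc1, Lyz1, Lyz2, Mertk, Cd14 and Msr1, chosen by name. Earlier results of these data were known at that choice. Every probe that carries one of these names on the array was taken. This gave 10 genes with 20 probes, of 56605 probes in all that are not controls, and 18 of the 20 were bright enough to be tested. The RNA came from whole kidneys. The control group was 3 MRL/MpJ mice (MRL mice). The other group was 3 mice of the genotype MRL/MpJ-Fas lpr/lpr (LPR mice), which are homozygous for the lpr mutation of the death receptor gene Fas in the same MRL/MpJ background. All mice were untreated females at 6 months of age, and each mouse gave 1 array. LPR mice develop lupus nephritis, and the array compared the transcripts of the diseased kidney with those of the control at this age. The mutation is present in every cell of the LPR mice.

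Macrophages depend on the receptor encoded by Csf1r, which binds the growth factors encoded by Csf1 and Il34. In the kidney they lie between the tubules and around the vessels, and they increase in number in nephritis. They take up debris, modified lipoproteins and dying cells through scavenger receptors and degrade them in lysosomes, where CD68 and lysozyme are found. Several of these receptors, among them the mannose receptor encoded by Mrc1 and the haemoglobin receptor encoded by Cd163, are used to tell states of macrophages apart.

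The signal of a probe is given on the log2 scale relative to the 75th percentile of its array, so that 0 is a probe at that percentile and a difference of 1 is 2-fold. A change is the mean of the LPR mice minus the mean of the MRL mice, with its standard error (SE), and the p-values are those of limma, adjusted by Benjamini-Hochberg over all 39924 tested probes. The percentile was at an intensity of 706 to 942, and each array had 69.6% to 73.5% of its spots clearly over the background. The arrays correlated at 0.991 to 0.995 within a group and at 0.970 to 0.978 between groups. The brightest Fas probe was at −0.37, −0.28 and −0.06 in MRL mice and at −0.49, −1.25 and −0.37 in LPR mice, and its change of −0.47 was not significant (adjusted p = 0.234). A dim Fas probe passed background in LPR mice alone (there at least 1.47-fold higher). The place of these probes relative to the mutation was not determined, so Fas did not serve as a check of the labels. Nothing says that the mice came from separate litters, and the p-values measure the spread between these 6 mice.

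The probes are 60 bases long. A few are shown: the Cd68 and Lyz2 probes with the largest change of their gene, the Msr1 probe that passed background in LPR mice alone, and the Cd163 probe that passed it in no mouse. The calls of these genes rest on brighter probes. The probes shown start at base 834, 94, 624 and 2610 of their transcripts in this order. All positions are those of the array annotation on the mm9 build of the mouse genome. The Cd68 probe lies on the minus strand at chr11:69478314-69478373, the Lyz2 probe on the minus strand at chr10:116719175-116719234, the Msr1 probe on the minus strand at chr8:40709296-40709355, and the Cd163 probe on the plus strand at chr6:124270436-124270495.
Cd68 A_51_P120470: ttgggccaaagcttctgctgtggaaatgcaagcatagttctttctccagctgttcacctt
Lyz2 A_51_P321150: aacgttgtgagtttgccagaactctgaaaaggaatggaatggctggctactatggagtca
Msr1 A_52_P127130: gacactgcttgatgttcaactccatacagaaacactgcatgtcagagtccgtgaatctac
Cd163 A_55_P2289819: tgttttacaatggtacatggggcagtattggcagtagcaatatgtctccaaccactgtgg

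Of the 10 genes, 8 were significantly higher in LPR mice by their brightest probe, none was lower, and Cd163 and Mertk did not pass the test. At an unadjusted p under 0.05 in limma, Mertk alone was lower. Over all 25641 genes tested in this way, 7.15% were higher and 5.44% were lower. In 6 of the 8 the rise was at least 2-fold (Cd68, Csf1, Mrc1, Lyz1, Lyz2 and Msr1), against 4.99% of all genes. That of Msr1 rests on dim values in MRL mice, and with another background correction (normexp) it was 0.73 on the log2 scale. Of the 18 tested probes, 15 were significantly higher and 3 did not pass, where 6.53% of all tested probes were higher and 6.17% lower. In 16 of the 18, every LPR mouse was above every MRL mouse, which was so for 11% of all probes. Both Msr1 probes were dim in MRL mice, and among the 16 probes above background in all 6 mice 13 were higher, which stand for 7 of 9 genes. The median change of the 10 genes was 1.76 on the log2 scale, and that of all genes was −0.12. In RNA of the whole kidney, more cells of a type cannot be told apart from more RNA of the gene per cell.

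**Figure D1:**
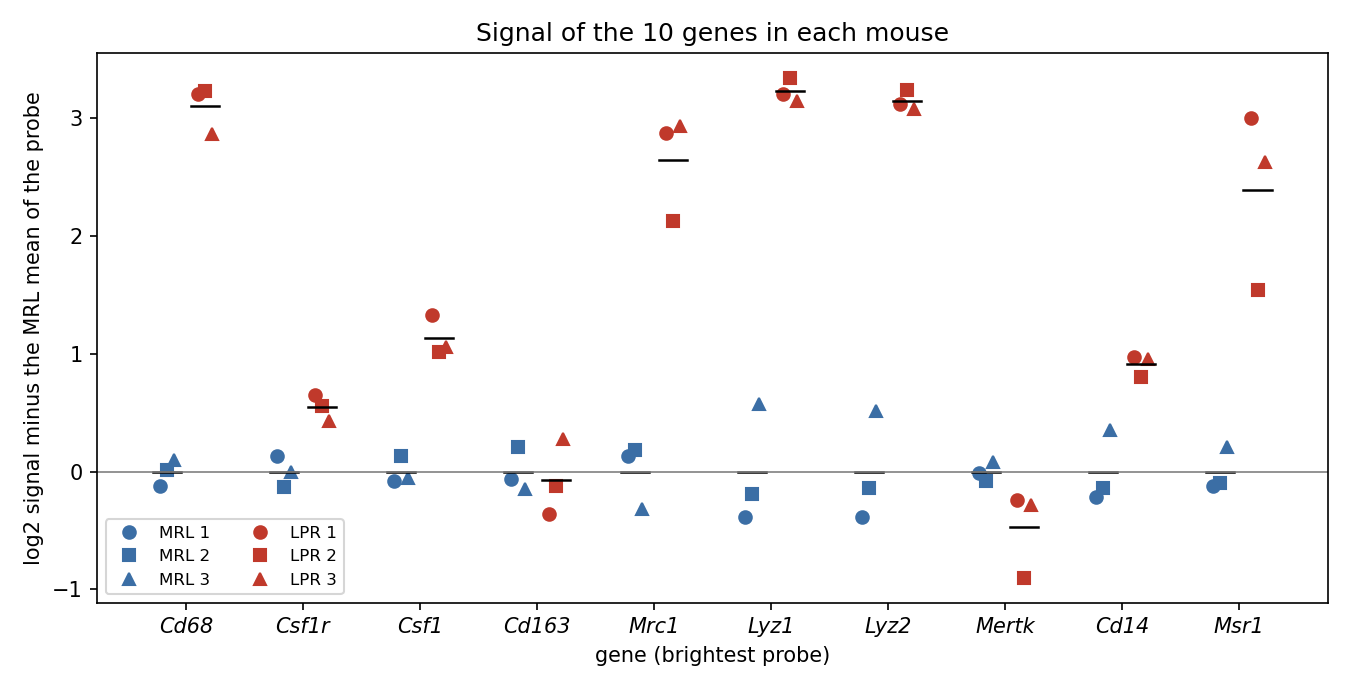
Signal of the brightest probe of each gene in each mouse, on the log2 scale, drawn relative to the mean of the MRL mice (grey line at 0). Each symbol is 1 mouse (MRL mice blue, LPR mice red) and the short black lines are group means; the LPR mice lie above all MRL mice for 8 genes, the groups overlap for Cd163, and the LPR mice lie below the MRL mice for Mertk.

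Cd68 encodes macrosialin, a glycoprotein of late endosomes and lysosomes. Its brightest probe was at −1.09, −0.95 and −0.86 in MRL mice and at 2.24, 2.26 and 1.90 in LPR mice. The groups were far apart and each was tight, and Cd68 was 8.59-fold higher in LPR mice (log2 change 3.1, SE 0.14, adjusted p = 2.92e-05). The probe printed above went from −3.23, −3.37 and −3.21 in MRL mice to 0.27, 0.22 and −0.07 in LPR mice. That was a 10.6-fold rise (log2 change 3.41, SE 0.13, adjusted p = 1.67e-05). The dimmest of the 3 probes rose 5.98-fold, and its level in MRL mice varied more than that of the others (SD 0.47). Whether a probe changed differently from the other probes of its gene was tested with diffSplice of limma. Of 14 probes of the 6 genes with several tested probes, 0 passed that test (2.79% of 23005 probes did), with 5 at an unadjusted p under 0.05, and 0 passed when limma was fitted to the differences between probes (2.27% of all). The lowest adjusted p in diffSplice, 0.177, was that of the dimmest Cd68 probe. In limma on the differences it was 0.165, for the Cd68 probe printed above.

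Lysozyme cleaves the cell wall of bacteria. Lyz2 encodes the form of macrophages and neutrophils, and Lyz1, its neighbour on chromosome 10, encodes a closely related enzyme best known from the Paneth cells of the gut. The Lyz1 probe was at 0.27, 0.47 and 1.23 in MRL mice and at 3.86, 4.0 and 3.80 in LPR mice, a 9.41-fold rise (log2 change 3.23, SE 0.24, adjusted p = 0.000274). The brightest Lyz2 probe was at 2.82, 3.06 and 3.72 in MRL mice and at 6.33, 6.44 and 6.29 in LPR mice, an 8.88-fold rise (log2 change 3.15, SE 0.23, adjusted p = 0.000226). For both, MRL mouse 3 was the highest of the controls, and the LPR mice were closer to each other than the MRL mice were. The Lyz2 probe printed above rose 10.3-fold (adjusted p = 0.000146), from −2.17, −2.24 and −1.46 to 1.53, 1.40 and 1.27. The Lyz1 probe shared no run of more than 8 bases with either Lyz2 probe. How far transcripts of one gene bind the probes of the other was not tested.

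The promoters of these neighbours are shown because their transcripts moved together. They are the 250 bases before each start in RefSeq on the GRCm38.p6 build, both on the minus strand, at chr10:117292869-117293118 for Lyz1 and chr10:117282273-117282522 for Lyz2. Aligned end to end they were identical at 200 of 252 positions (79.4%). The capitals mark AGGAAG on either strand, which holds the purine-rich core bound by PU.1, the myeloid factor encoded by Spi1. Both had a match 99 bases before the start, and Lyz2 had another at 137 bases. Such a match was present in 29.5% of 32851 promoters of this length and in 3 of the 7 genes described here with a promoter in the RefSeq table, the third being Mrc1. A match is a description of the sequence and not a site of binding.
Lyz1: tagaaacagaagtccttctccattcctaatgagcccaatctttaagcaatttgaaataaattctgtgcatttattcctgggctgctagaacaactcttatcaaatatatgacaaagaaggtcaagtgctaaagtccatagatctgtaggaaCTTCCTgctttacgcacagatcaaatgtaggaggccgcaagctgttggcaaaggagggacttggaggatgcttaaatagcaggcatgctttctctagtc
Lyz2: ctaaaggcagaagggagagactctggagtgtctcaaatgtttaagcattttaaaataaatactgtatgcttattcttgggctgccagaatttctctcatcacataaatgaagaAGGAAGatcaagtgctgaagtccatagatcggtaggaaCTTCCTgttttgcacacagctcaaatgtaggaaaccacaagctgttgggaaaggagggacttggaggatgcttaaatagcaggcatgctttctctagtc

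Csf1r, the receptor that macrophages need to survive, and its ligand Csf1 had smaller rises. The brightest Csf1r probe was at 3.90, 3.64 and 3.76 in MRL mice and at 4.42, 4.32 and 4.19 in LPR mice. The groups did not overlap, but the lowest LPR mouse was close above the highest MRL mouse, and the rise was 1.46-fold (log2 change 0.55, SE 0.12, adjusted p = 0.0296). This call was lost on leaving out MRL mouse 2 or 3 or any of the LPR mice, with an adjusted p of 0.0478 to 0.107 over the 6 mice left out in turn. The other Csf1r probe was at −0.38, −0.56 and −0.71 in MRL mice and at −0.38, −0.36 and −0.36 in LPR mice, and its change of 0.18 was not significant (adjusted p = 0.325). The changes of these 2 probes differed by 0.36 on the log2 scale, which was not significant in diffSplice (adjusted p = 0.384).

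Csf1 rose on all of its tested probes. The brightest was at −1.0, −0.79 and −0.97 in MRL mice and at 0.41, 0.10 and 0.14 in LPR mice, a 2.20-fold rise (log2 change 1.14, SE 0.13, adjusted p = 0.00185). The others rose 2.74-fold and 2.85-fold (adjusted p = 0.000476 and 0.00094), and they overlap in the genome, so that they are not independent of each other. All LPR mice were above all MRL mice on each. A further Csf1 probe, annotated to an Ensembl transcript, was below background in all 6 mice and has no value.

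Il34, the other ligand of this receptor, was at −0.40, −0.07 and −0.05 in MRL mice and at 0.20, 0.09 and 0.49 in LPR mice by its brightest probe, and this change of 0.43 was not significant (adjusted p = 0.118). Its other probe was significantly higher (log2 change 0.63, adjusted p = 0.0262). Of 10 tested genes of the receptor pathway and of myeloid transcription factors, 5 were higher and 0 lower, with a median change of 0.51. Among them were Csf2rb, the signalling chain of the receptors for GM-CSF, interleukin 3 and interleukin 5 (log2 change 3.18, adjusted p = 1.35e-05), Spi1, Irf8, a factor of the monocyte lineage (1.57, adjusted p = 0.000923) and Csf2ra. Csf2rb is less uniform than this value, as another of its probes changed by 0.061 (adjusted p = 0.848). A further Csf2rb probe was below background in all MRL mice and higher by at least 7.41-fold in LPR mice (adjusted p = 0.000247). That probe entered the test through the LPR mice alone, so its p is no further support. Spi1 was below background in the 3 MRL mice and above it in the 3 LPR mice, where its level was at least 5.15-fold that of MRL mice (adjusted p = 0.0008). It entered the test through the LPR mice alone, and without it 4 of 9 genes were higher. Csf2 and Csf3, which encode the growth factors GM-CSF and G-CSF, were below background in all 6 mice.

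Msr1, the class A scavenger receptor for modified lipoproteins, was dim in MRL mice. Its brighter probe was at −5.87, −5.84 and −5.53 in MRL mice, with 1 of 3 above background, and at −2.74, −4.21 and −3.12 in LPR mice, all above background. The fitted rise was 5.25-fold (log2 change 2.39, SE 0.36, adjusted p = 0.00663), and LPR mouse 2 was the lowest of its group. All values of this probe lay above the detection limit of their array. Raising lower values to that limit therefore left the 2.39 as it was and is no check of it. With normexp correction, which adds an offset of 50 to every intensity, the changes of the 2 probes were only 0.73 each. The probe printed above was at −6.15, −7.60 and −8.19 in MRL mice and at −3.46, −4.15 and −3.84 in LPR mice. It was above background in 0 of 3 MRL mice, so that only a bound against a detection limit can be given. At that limit LPR mice exceeded MRL mice at least 4.39-fold (adjusted p = 0.00529). As this probe entered the test through the LPR mice alone, its p is no further support. The bound sets the mean of the LPR mice against the lowest signal well above background on each MRL array, as do all bounds given here. It holds for that limit and is not a strict minimum. The brighter Msr1 probe lay over the limit in all MRL mice, though it was above background in 1 of 3. With normexp the change of the probe printed above was 0.73, under its bound of 2.13 on the log2 scale.

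Mrc1 encodes the mannose receptor CD206, which takes up glycoproteins. Its probe was at −2.44, −2.39 and −2.89 in MRL mice and at 0.31, −0.45 and 0.36 in LPR mice. All LPR mice were above all MRL mice, LPR mouse 2 was again the lowest of its group, and Mrc1 was 6.26-fold higher (log2 change 2.65, SE 0.25, adjusted p = 0.000786). Cd163, the receptor for complexes of haemoglobin and haptoglobin, was at −4.89, −4.62 and −4.98 in MRL mice and at −5.19, −4.95 and −4.55 in LPR mice. The groups overlapped, and the change of −0.068 (SE 0.19) was not significant (adjusted p = 0.833). Its sign turned without MRL mouse 2 (0.037) and without LPR mouse 1 (0.078). The Cd163 probe printed above was below background in all 6 mice.

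**Figure D2:**
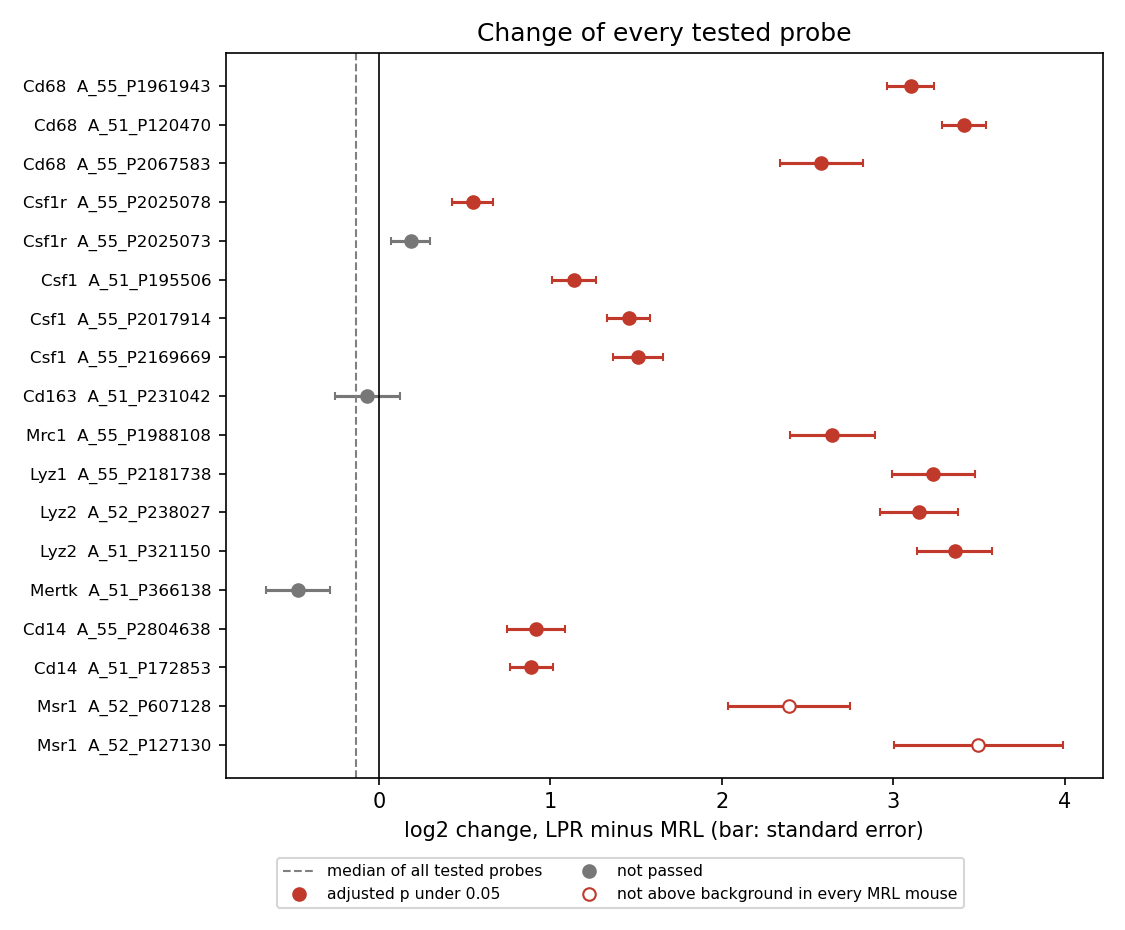
Change of each of the 18 tested probes, LPR minus MRL on the log2 scale, with bars of 1 standard error; red points passed the test, grey points did not, and open points mark the Msr1 probes, which were not above background in every MRL mouse. The dashed line is the median of all tested probes (−0.14), and only the Cd163 and Mertk probes lie left of 0.

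Among 15 other scavenger receptor genes with a tested probe, 6 were higher and 0 lower, and the median change was 0.15. Those that rose most were Marco, a class A receptor of macrophages (log2 change 3.24, SE 0.80, adjusted p = 0.0431), Cd5l, a protein that macrophages secrete (3.18, SE 0.41, adjusted p = 0.00346), and Scara3 (1.36, SE 0.10, adjusted p = 0.000218). Marco was at −3.98, −4.29 and −3.66 in MRL mice and at 1.24, −2.17 and −1.30 in LPR mice. Its level thus varied widely among the LPR mice, and its call was lost without any one of the MRL mice or LPR mouse 3 (adjusted p of 0.0114 to 0.114 over the 6 mice left out in turn). The number of these receptors that were higher fell to 3 without any one of the MRL mice, and was 3 to 5 over the 6 mice left out. Of 8 genes of haemoglobin and haem clearance, the pathway of Cd163, 0 passed the test in limma, and at an unadjusted p under 0.05 Blvrb was higher (log2 change 0.45, adjusted p = 0.0556) and Blvra lower (−0.47, adjusted p = 0.112), both of which encode biliverdin reductases. The haptoglobin gene Hp changed by 0.40 (adjusted p = 0.543). Of 6 further genes of the mannose receptor family and of the lysosomal membrane family of Cd68, Ly75 alone was higher (log2 change 1.84, adjusted p = 0.00173). Lamp1, which encodes an abundant membrane protein of lysosomes, changed by −0.14 (adjusted p = 0.37).

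Mertk encodes a receptor tyrosine kinase by which macrophages bind dying cells through the bridging proteins encoded by Gas6 and Pros1. It was at 0.85, 0.78 and 0.94 in MRL mice and at 0.62, −0.04 and 0.57 in LPR mice. Every LPR mouse was below every MRL mouse, but LPR mouse 2 was far below the other two, and the change of −0.47 (SE 0.19) was not significant (adjusted p = 0.149). Axl, of the same receptor family, was 2.24-fold higher (log2 change 1.16, SE 0.12, adjusted p = 0.00139), from 2.51, 2.76 and 2.82 in MRL mice to 3.88, 3.94 and 3.76 in LPR mice. Gas6 was at 5.79, 6.22 and 6.11 in MRL mice and at 6.14, 5.97 and 6.18 in LPR mice, and its change of 0.053 was not significant (adjusted p = 0.828).

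Of 15 genes for the uptake of dying cells, 4 were higher and 1 lower, with a median change of 0.10. Besides Axl, the higher ones were Itgb3, an integrin chain (log2 change 1.02, adjusted p = 0.023), Pros1 (0.46, adjusted p = 0.0306), and Timd4, a phosphatidylserine receptor that was below background in all MRL mice and higher by at least 1.17-fold in LPR mice (adjusted p = 0.0376). The other Pros1 probes changed by 0.51 (adjusted p = 0.0216) and, on a dim one, by −1.34, which was not significant (adjusted p = 0.0977). Timd4 too entered the test through the LPR mice alone, and without it 3 of 14 genes were higher. Itgav, the chain with which Itgb3 pairs, was lower (−0.50, adjusted p = 0.0358). Leaving out each mouse in turn left 1 to 3 higher and 0 lower. The count fell to 2 without MRL mouse 1 or 3 or LPR mouse 1 or 2, and to 1 without LPR mouse 3.

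Cd14, the coreceptor for lipopolysaccharide of monocytes, macrophages and neutrophils, rose by a little under 2-fold. Its brightest probe was at −0.46, −0.38 and 0.11 in MRL mice and at 0.73, 0.56 and 0.71 in LPR mice, a 1.88-fold rise (log2 change 0.91, SE 0.17, adjusted p = 0.0164). MRL mouse 3 was the nearest of the controls to the LPR mice. The call was lost without MRL mouse 1 or 2 or LPR mouse 1 or 3 (adjusted p of 0.00462 to 0.0606 over the 6 mice left out). The other Cd14 probe went from −0.82, −0.77 and −0.47 to 0.25, 0.13 and 0.23, a 1.85-fold rise (SE 0.13, adjusted p = 0.00563) that was significant without any one mouse. Of 10 tested genes listed under lipopolysaccharide sensing, not all of which act with Cd14, 2 were higher and 0 lower, with a median change of 0.04. They were Ly86, which encodes the partner of the Toll-like receptor homologue CD180 (log2 change 2.74, adjusted p = 0.000643), and Lbp, the binding protein that hands lipopolysaccharide to CD14 (0.87, adjusted p = 0.00345). Tlr4, the signalling receptor, changed by 0.11 (adjusted p = 0.496) and Ly96, its binding subunit, by −0.16 (adjusted p = 0.614). Dimmer probes of Tlr4 and Ly96 changed by 0.54 and 0.70, and neither was significant (adjusted p = 0.0656 and 0.0676).

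The changes of 5 pairs of these genes were compared within the mice, the pairs being chosen after the values were seen. In each mouse the signal of one gene was subtracted from that of the other, and the groups were compared with a two-sided exact permutation test, which with 3 against 3 mice cannot give a p below 0.1. All 5 pairs reached that smallest value in the exact permutation test (p = 0.1, and 0.1 after adjustment), and none can pass a threshold of 0.05. Cd68 rose by 2.56 more than Csf1r on the log2 scale, and the lowest such difference in an LPR mouse was 2.30 above the highest in an MRL mouse. The change of Mrc1 exceeded that of Cd163 by 2.71, and the fitted change of Msr1, whose MRL level was above background in 1 of 3 mice, exceeded that of Mertk by 2.86. Csf1 rose by 0.59 more than its receptor. Lyz1 and Lyz2 differed in their change by 0.084, where the spread of their difference was 0.05 in MRL mice and 0.02 in LPR mice (SD, n = 3).

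The pattern of Csf1r over the 6 arrays was compared with that of 23188 genes above background on all arrays, as a description. Both the group difference and the order of the mice within a group enter the correlation. The 5 most like it were Adcy3, an adenylyl cyclase (r = 0.995), Tnfaip2 (r = 0.993), Ubash3b (r = 0.99), and the probes A_30_P01030997 (r = 0.999) and A_30_P01025659 (r = 0.993), which carry no gene name. Of the genes described here, Cd68 was at rank 251 (r = 0.942), Csf1 at 586 (r = 0.92), Lyz1 at 664 (r = 0.915), Lyz2 at 697 (r = 0.914), Mrc1 at 820 (r = 0.906) and Cd14 at 1423 (r = 0.854). Cd163 (r = −0.43) and Mertk (r = −0.68) ran the other way. Over the deviations from the group means alone, r was 0.95 to 0.99 for the 5 most alike and 0.26 for Cd68. It was −0.18 to 0.03 for Csf1, Lyz1, Lyz2, Mrc1 and Cd14, 0.06 for Mertk and −0.83 for Cd163. Msr1 was not on all arrays above background and was not ranked. With 6 arrays, 158 genes had an r above 0.95.

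Other macrophage markers moved with these genes. Of 13 tested, 11 were higher and 0 lower, with a median change of 3.20, and their summed signal, as a multiple of the 75th percentile, was 28.2 to 32.8 in MRL mice and 88.4 to 91.3 in LPR mice. The brightest of them in MRL mice was Itgam (mean 3.78), which did not rise, and the sum rose by less than the median gene. The largest rises were those of Fcgr1, the high-affinity IgG receptor (log2 change 4.23, adjusted p = 3.63e-05), Trem2, a lipid receptor (3.45, adjusted p = 2.21e-05), and C1qc, a chain of complement C1q (3.43, adjusted p = 0.000122). Adgre1, which encodes F4/80, was at −1.57, −1.76 and 0.68 in MRL mice and at 2.01, 1.90 and 1.96 in LPR mice (log2 change 2.84, SE 0.60, adjusted p = 0.0274). MRL mouse 3 was thus far above the other controls. Without it the adjusted p was 7.84e-05, and the call was lost without any other single mouse (adjusted p of up to 0.0863). The other Adgre1 probe was below background in all MRL mice and higher by at least 1.65-fold in LPR mice (adjusted p = 0.00193). That probe entered the test through the LPR mice alone, so its p is no further support. Itgam, which encodes CD11b, changed by −0.09 on its brightest probe (adjusted p = 0.783) and by 0.19 on the other (adjusted p = 0.522), and the groups overlapped on both.

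Markers of both kinds of macrophage activation were higher. Of 8 tested genes of classical activation, 5 were higher and 0 lower (median change 2.02), among them Cxcl9 (5.96, adjusted p = 2.53e-05) and Cxcl10 (2.43, adjusted p = 0.00542), chemokines induced by interferon, and the costimulatory gene Cd86 (2.47, adjusted p = 0.000549). Nos2, which encodes inducible nitric oxide synthase, was 1.90-fold higher (adjusted p = 0.00618). Of 8 tested genes of alternative activation, 6 were higher and 0 lower. Their median change was 2.13, or 1.41 with 2 genes that were below background in MRL mice set at their bounds. Those were Pdcd1lg2, the ligand PD-L2 (at least 11.4-fold, adjusted p = 0.00058), and Il10 (at least 2.30-fold, adjusted p = 0.00022). They entered the test through the LPR mice alone, and without them 4 of 6 genes were higher. Clec10a, a lectin of macrophages and dendritic cells, rose by 2.79 (adjusted p = 5.49e-05). Arg1 and Ccl22 of this list were not tested, as Ccl22 was below background in all mice and Arg1 was above it in fewer than 3.

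Markers of other leukocytes rose in the same kidneys, and some of the genes above are also transcribed in those cells. Of 6 T cell markers, 6 were higher, with a summed signal of 1.12 to 1.38 in MRL mice and 9.61 to 11.02 in LPR mice. Of 9 dendritic cell markers, 6 were higher and 0 lower, with Itgax at a change of 3.82 (adjusted p = 1.79e-05), and their summed signal was 93.1 to 112 in MRL mice and 93.1 to 102 in LPR mice. Nearly all of that sum was Siglech, which changed by −0.10 (adjusted p = 0.586), and the sum of the other 8 was 0.709 to 0.778 in MRL mice and 3.64 to 4.10 in LPR mice. Of 6 B cell markers, 3 were higher and 1 lower, with a summed signal of 0.941 to 1.11 and 3.76 to 4.91. Of 10 neutrophil markers, 3 were higher and 0 lower, with a summed signal of 2.69 to 3.22 and 6.07 to 12.7, the highest being LPR mouse 2. S100a8 and S100a9 rose by 2.48 and 2.28 (adjusted p = 0.00719 and 0.0105, lost with the slide position as a block), Mpo by 0.65 (adjusted p = 0.0458, lost without any one mouse other than LPR mouse 1), and Ly6g, which defines mature neutrophils, changed by 0.37 (adjusted p = 0.101). Of the dendritic cell markers that were higher, 1 was below background in all MRL mice. That marker entered the test through the LPR mice alone, and without it 5 of 8 were higher. In the lists of related genes and leukocytes with 0 lower, 0 were lower at an unadjusted p under 0.05 in limma either, except for Blvra. Their part in the changes of Lyz2, Cd14, Csf1r and the rest was not tested.

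Of the markers of tubules, endothelium and podocytes, 0 were significantly higher in limma, and 1 podocyte gene was higher at an unadjusted p under 0.05. Of 7 proximal tubule markers, 3 were lower, with a summed signal of 603 to 652 in MRL mice and 459 to 512 in LPR mice, and of 5 distal nephron markers Calb1 was lower (log2 change −1.20, adjusted p = 0.035). Of 7 endothelial markers Kdr was lower (−0.57, adjusted p = 0.0317), and 0 of 5 podocyte markers passed the test. Of 6 fibroblast and pericyte markers, 4 were higher, with a summed signal of 20.3 to 21.2 and 33.6 to 38.0. The number of proximal tubule markers that were lower was 1 to 2 on leaving out each mouse. It was 1 without MRL mouse 2 or 3 or LPR mouse 1 or 3, Lrp2 losing its call without any one mouse (adjusted p of 0.0764 to 0.154) and Slc5a2 without those 4 (up to 0.0965). The calls of Calb1 and Kdr were each lost without at least 4 of the 6 mice (adjusted p of up to 0.0996 and 0.102). The part of these shifts in the results above was not tested.

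**Figure D3:**
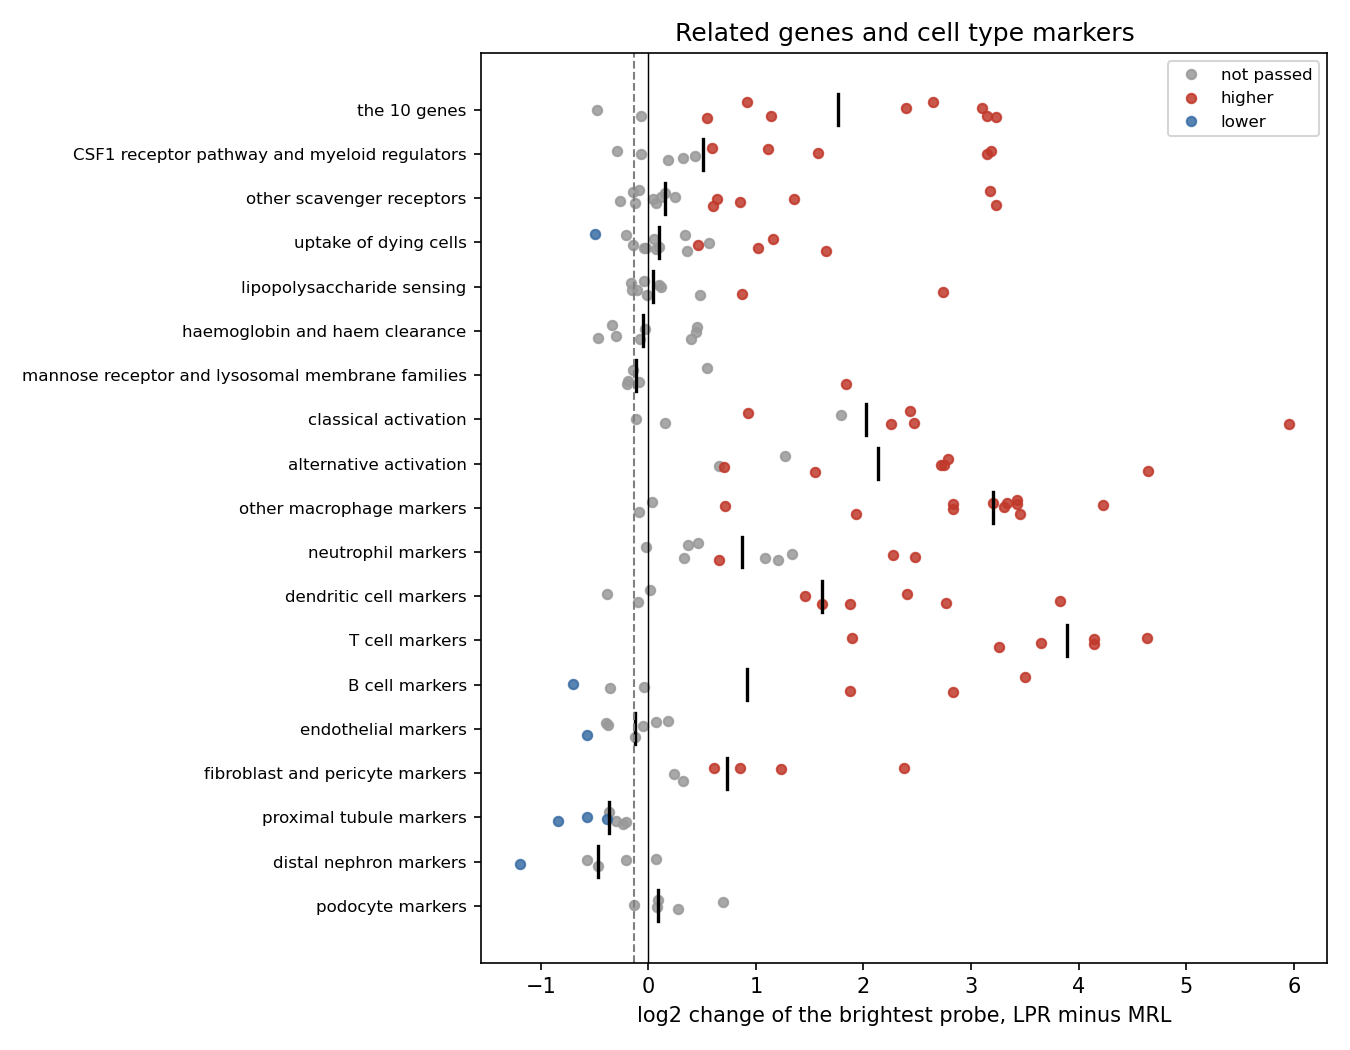
Change of the brightest tested probe of each gene, LPR minus MRL on the log2 scale, in rows of the 10 genes, related genes and cell type markers; red points were higher, blue points lower and grey points did not pass the test. Black lines are row medians and the dashed line is the median of all tested probes (−0.14); the row of other macrophage markers has a median of 3.20 and that of the other scavenger receptors 0.15.

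All arrays were on 1 slide, with the 3 MRL mice and LPR mouse 1 in one set of array positions and LPR mice 2 and 3 in the other. Within the first set, LPR mouse 1 minus the mean of the MRL mice was 3.21 for Cd68, 0.66 for Csf1r, 1.33 for Csf1, 2.88 for Mrc1, 3.21 for Lyz1, 3.13 for Lyz2, 0.98 for Cd14 and 3.00 for Msr1. The same difference was −0.36 for Cd163 and −0.24 for Mertk. All have the sign of the comparison of all mice, which only Cd163 could have missed, as the groups did not overlap for the others. All MRL mice were in the first set. The size of a change in a fit with the set as a block is therefore this same difference, and it rests on LPR mouse 1. With the set of positions as a block, Csf1r (adjusted p = 0.0964) and Cd14 (adjusted p = 0.106 and 0.0552) no longer passed the test, and the other 6 genes did. Of the related genes named above, Adgre1 (adjusted p = 0.162), Cxcl10 (0.0595), Nos2 (0.0568), Itgb3 (0.189), Timd4 (0.166), S100a8 (0.1), S100a9 (0.127), Mpo (0.303), Kdr (0.117), Lrp2 (0.183) and Slc5a2 (0.102) lost their calls in that fit too.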

How the data were processed

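Total RNA of whole kidneys was labelled with Cy3 and hybridised to SurePrint G3 Mouse 8x60K arrays by the authors. The deposited intensities are processed signals of Agilent Feature Extraction 12.0.3.1, background-subtracted and not yet normalised between arrays. The authors also deposited the ratio of each signal to the 75th percentile of its array, used as an alternative. Here control spots and outlier spots were left out, log2 intensities were shifted by the 75th percentile of each array, spots of 1 probe were averaged, and probes well above background on at least 3 of 6 arrays were tested.

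The comparison of LPR with MRL mice used limma 3.58.1 (R 4.3.3) and Benjamini-Hochberg adjustment, with a threshold of 0.05. The brightest tested probe stands for a gene. Probes of 1 gene were compared with diffSplice. On simulated data with known shifts of 1 probe in 100 genes, diffSplice recovered 94 genes and called 41 others, and limma on the differences between probes recovered 87 and called 10 others, so this second test was added. Counts without dim genes and the dendritic cell sum without Siglech were also added after the data were seen. Summed signals are sums over a list of the signal of the brightest probes divided by the 75th percentile. The number of arrays limits the precision. The members and lists were chosen with earlier results of these data known. Named were all probes of the 10 genes, up to 3 genes per list with the largest change among those that passed, Il34, Gas6, Tlr4, Ly96, Hp, Adgre1, Itgam, Ly6g and Nos2, and the 5 genes most like Csf1r. Csf2ra, Pros1, Itgav, Lamp1, Blvra and Blvrb were named after their values were seen. One gene of a list is not reported here and remains in the tallies. Symbols were taken from the array. Promoters were aligned with Biopython 1.88. The alternatives concerned background correction, scaling, the filter, blocks, the t-test of the methods, the choice of probe and each mouse left out.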

Additional observations from a re-analysis of the deposited data

How the results depend on the processing

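The main comparison was repeated under 23 alternatives. The number of the 10 genes that were higher was 6 to 8 with 8 in the main analysis, except under the methods' t-test after Benjamini-Hochberg adjustment (5 on log2 values and 4 on linear values), and it was 6 to 7 on leaving out each mouse in turn. None was lower under any alternative. Csf1r lost its call under 11 of 23 alternatives and the brightest Cd14 probe under 7, whereas Cd68, Lyz1, Lyz2 and Csf1 kept theirs under all. Mrc1 lost its call under the adjusted t-test on linear values (adjusted p = 0.0683), and the Msr1 probes under both adjusted t-tests (0.0505 to 0.152). Normexp gave a change of 0.73 for each Msr1 probe, against 2.39 and a bound of 4.39-fold. Csf1r changed by 0.55 with the replicate block too, but its adjusted p was then 0.0566. Deviations of same-numbered mice from their group means correlated at 0.146, 0.029 and 0.017. Whether the numbers pair the mice cannot be told from these values. With the replicate block 2199 probes were higher and 1117 lower, against 2606 and 2462. Of the calls, 51.4% were higher, against 36.0% with normexp, 66.3% with no filter or with the replicate block and 75.9% with the slide position as a block.

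The number of related genes that were lower, 7, was 11 with normexp, 4 with quantile normalization, 1 with no filter, 2 with the slide position as a block, 3 with the replicate block, 13 and 14 with the methods' t-test unadjusted on log2 and linear values, 3 and 2 with it adjusted, and 1 to 4 on leaving out each mouse. The number of probes that differed from the others of their gene, 0, was 3 with no filter and 0 to 1 on leaving out each mouse (1 without MRL mouse 3). Signs that turned were those of changes near 0. Leaving out each mouse gave −0.24 to 0.078 for Cd163, −0.071 to 0.14 for Gas6, −0.19 to 0.092 for Itgam and −0.29 to 0.018 for Ly96, and the mean of the probes gave 0.053 for Itgam and 0.27 for Ly96. The cause was not tested. Signal over background limits Msr1, Spi1, Timd4, Pdcd1lg2, Il10, 1 dendritic cell marker and dim probes of Csf2rb and Adgre1, which were not above background in most or all MRL mice.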
